A study of Mus musculus with 6 samples.

Results

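The actin isoforms and their contractile partners were followed here in lenses of mice that carry a substitution in βB2-crystallin. The members were 10 genes chosen by name: the smooth muscle actins Acta2 and Actg2, the striated muscle actins Acta1 and Actc1, the cytoplasmic actins Actb and Actg1, the tropomyosins Tpm1 and Tpm2, transgelin (Tagln) and calponin 1 (Cnn1). They had 19 probes among the 39429 of the array, and were 10 of 20659 genes that could be named. No measured value was used in choosing the members, but the proposal was made with earlier results of these arrays known, among them a lower Acta2.

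CRISPR/Cas9 editing of Crybb2 gave the knock-in mice a cysteine codon in place of tryptophan (W151C); 3 knock-in arrays (labelled replicates 1, 2 and 4) were set against 3 wild type arrays (replicates 1, 2 and 3). Every array held lens RNA from mice aged 3 months, labelled with a single dye, Cy3. The labels number the arrays as replicates and do not say how many animals went into each, whether the allele was carried on both chromosomes, or the strain. Where arrays share a source, p-values reflect array-to-array spread alone, and part of that can be technical.

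Actin is a filament-forming protein made from a small gene family whose members are nearly identical in sequence. The cytoplasmic isoforms build the cortex of all cells, whereas the muscle isoforms belong to contractile cells. In the lens, smooth muscle α-actin (Acta2) is best known as a marker of lens epithelial cells that turn into myofibroblasts, as in capsular opacification and some forms of cataract. Tropomyosins lie along the actin filament and set access for myosin and other partners, and transgelin and calponin bind actin in smooth muscle cells. Many of these genes are targets of serum response factor (SRF), which binds the CArG box (CC, then 6 bases of A or T, then GG) together with cofactors of the myocardin family.

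Promoter windows from RefSeq (build GRCm38.p6, 250 bases before to 50 after the start of the gene) were matched for 7 members. They are shown for the genes that passed the test below and had a window. The elements near their starts can then be read beside the change in signal. Tagln also passed but had no window, and neither had Actb or Actg2. Among the genes that rose, the window can therefore be read for Tpm2 alone. Capitals mark CArG boxes and CArG-like sequences, in which 1 of the 6 middle bases is G or C.
Acta2, chr19:34255324-34255623, minus strand: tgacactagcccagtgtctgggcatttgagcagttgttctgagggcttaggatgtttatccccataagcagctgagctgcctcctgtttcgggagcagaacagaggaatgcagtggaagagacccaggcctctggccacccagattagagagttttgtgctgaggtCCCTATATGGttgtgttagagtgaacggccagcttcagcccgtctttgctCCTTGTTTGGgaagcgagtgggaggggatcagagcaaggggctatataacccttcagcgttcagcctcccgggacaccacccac
Acta1, chr8:123894726-123895025, minus strand: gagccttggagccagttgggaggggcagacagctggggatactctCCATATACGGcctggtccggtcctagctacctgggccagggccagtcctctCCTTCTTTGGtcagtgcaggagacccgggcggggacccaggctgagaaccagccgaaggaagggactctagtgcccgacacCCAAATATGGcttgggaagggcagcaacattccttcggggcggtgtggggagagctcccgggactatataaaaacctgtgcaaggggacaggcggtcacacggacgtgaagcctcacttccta
Tpm2, chr4:43523505-43523804, minus strand: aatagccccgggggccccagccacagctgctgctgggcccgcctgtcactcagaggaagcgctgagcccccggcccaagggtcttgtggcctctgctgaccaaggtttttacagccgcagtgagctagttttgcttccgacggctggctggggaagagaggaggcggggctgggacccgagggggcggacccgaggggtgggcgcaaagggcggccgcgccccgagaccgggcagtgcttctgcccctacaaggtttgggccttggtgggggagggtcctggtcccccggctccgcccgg
Acta1 held the exact box CCAAATATGG from base -73 to -64 and 2 CArG-like sequences. Acta2 held no exact box and 2 CArG-like sequences, CCCTATATGG from base -84 to -75 and CCTTGTTTGG from base -34 to -25. In Tpm2 neither form was found in this window. An exact box also stood in the windows of Actg1 (CCATATATGG, from base -90) and Actc1 (CCAAATAAGG, from base -47), so that 3 of the 7 members held one, and 3 of 7 a CArG-like sequence. Of all 32851 promoter windows of this length, 1.63% held an exact box and 8.5% a CArG-like sequence, on either strand. The element CATTCC (known as the MCAT element) was found, on either strand, in the windows of 3 members (Acta1, Acta2 and Tpm1) and in 14.7% of all windows. A match of letters describes the window and does not show that a factor binds there. All positions are counted from the annotated start of the gene, which was not checked against where transcription begins.

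The arrays differed in brightness and in scan. Spot signal at the 75th percentile lay between 167 and 201 for knock-in, and at 142, 120 and 698 for wild type replicates 1, 2 and 3. Each array was therefore scaled to its own 75th percentile, and levels are log2 signals relative to it. By the scan times in the file headers, the 3 knock-in arrays shared scan 1, wild type arrays 1 and 2 scan 2, and wild type array 3 scan 3 on another day. No scan held both genotypes, so scan and genotype cannot be told apart. Values with scan as a random block, and values within the shared scan day (all knock-in arrays, with wild type replicates 1 and 2), are given beside the results. The edited gene, Crybb2, had a mean log2 signal of 8.96 ± 0.20 in knock-in and 9.37 ± 1.22 in wild type lenses (SD, n = 3 each), and its difference did not pass the test (limma adjusted p = 0.625). Of 14 lens markers all were measured, and 13 had signal clear of background in each of the 6 arrays. Among these markers 5 fell and 0 rose: Lim2, a fibre membrane protein, fell by 2.35 (adjusted p = 0.000634), Mip, the fibre water channel, fell by 1.21 (adjusted p = 0.045, and 0.238 with scan as a random block), and their part in the results below was not tested. Over all genes tested, 12.6% passed as lower. The count of marker falls was 12 without wild type replicate 3, where 43.2% of all genes passed in either direction. It was 2 with scan as a random block, where 2.02% of all genes passed as lower. In whole lenses, fewer cells of a type and less RNA per cell cannot be told apart.

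Myofibroblast change was the question behind this choice of genes, and they did not move as one group in knock-in lenses. Of the 10 members, 7 were measured, 2 rose (Tpm2 and Tagln), 2 fell (Acta2 and Acta1) and 3 (Actb, Actg1 and Tpm1) did not pass an adjusted p of 0.05. Across all 12783 genes tested, 25.9% passed, 13.3% higher and 12.6% lower, so passing the test is common on these arrays and 4 of 7 is to be read against that share. The arrays of the groups did not overlap for 6 of the 7, against 45.9% of all genes.

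**Figure D1:**
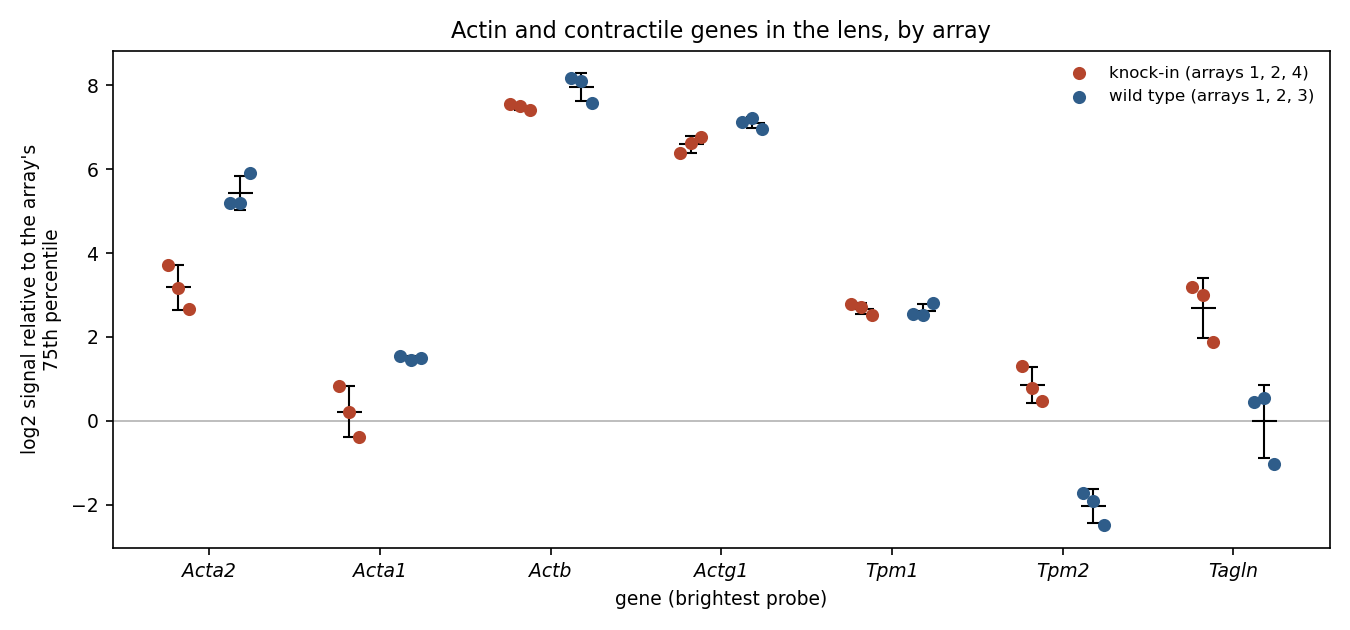
Log2 signal of the 7 measured genes over its array's 75th percentile (y axis), with 1 point per array, knock-in left and wild type right of each gene; the black bars give the mean and SD of 3 arrays. Acta2 and Acta1 lie lower, and Tpm2 and Tagln higher, on every knock-in array than on any wild type array, and Tpm1 overlaps; levels of different genes cannot be compared, since each rests on its own probe.

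Acta2, the smooth muscle α-actin, was lower in the knock-in lenses on all arrays. Its log2 signal was 3.72, 3.18 and 2.66 in knock-in replicates 1, 2 and 4, and 5.19, 5.19 and 5.90 in wild type replicates 1, 2 and 3. The lowest wild type array stood well above the highest knock-in array. The fall was by 2.24 on the log2 scale (SE 0.32, limma adjusted p = 0.00373), or 4.74-fold. The Acta2 probe was printed in 10 spots on each array, and the SD of their log2 signals within an array was between 0.023 and 0.078. That is spread between spots and not between samples. Between arrays the SD was 0.53 in knock-in and 0.41 in wild type (n = 3 each). On knock-in array 1, 2 of the 10 spots carried an outlier flag and were left out. Within the shared scan day the difference was -2.01 (adjusted p = 0.00382), and with scan as a random block it was -2.32 and did not pass (adjusted p = 0.0585).

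Actg2, the other smooth muscle actin, was not well above background on any array. The same held for Cnn1, calponin 1, a late marker of smooth muscle differentiation, and for Actc1, the cardiac α-actin. These 3 genes were therefore not tested, except in the setting with no filter on dim probes. Their probes show only that the signal was near background, which sets no direction.

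Acta1, the skeletal muscle α-actin, was also lower. Its log2 signal was 0.83, 0.20 and -0.38 in knock-in replicates 1, 2 and 4, and 1.55, 1.45 and 1.51 in wild type replicates 1, 2 and 3. The wild type arrays lay close to each other, while the knock-in arrays were spread (SD 0.61 in knock-in and 0.049 in wild type, n = 3 each). The fall was by 1.29 (SE 0.30, limma adjusted p = 0.0209), or 2.44-fold. Without knock-in replicate 2, wild type replicate 1 or wild type replicate 2 the difference was -1.28, -1.26 and -1.31, and the adjusted p was 0.0757, 0.0677 and 0.0544, so the size was kept and the call was not. It was -1.28 within the shared scan day (adjusted p = 0.0259) and did not pass with scan as a random block (adjusted p = 0.253).

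Acta1 and Acta2 encode proteins that are almost the same, and the probe sequences were not used here, so signal of one on the probe of the other was not tested. The sizes of the 2 genes are given here as description only. Over the same arrays, the fall of Acta2 exceeded that of Acta1 in mean. Wild type array 3 stood above wild type arrays 1 and 2 by 0.71 for Acta2 and by 0.0081 for Acta1. For Acta2 that gap lay just beyond the 95th percentile of all genes, 0.70. For the other genes that passed, the gap was -1.52 for Tagln, at the 5th percentile of all genes (-1.52), and -0.68 for Tpm2. The median gap over all genes was 0.073.

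The cytoplasmic actins were nearer to equal between genotypes. Actb, β-actin, had 7.55, 7.50 and 7.41 in knock-in replicates 1, 2 and 4, and 8.18, 8.11 and 7.57 in wild type replicates 1, 2 and 3. The groups did not overlap, but wild type array 3 came close to the knock-in arrays. The difference was -0.47 (SE 0.20, limma adjusted p = 0.135, 95% interval from -0.94 to 0.013), and did not pass. Within the shared scan day, with that day as a fixed block, it was -0.66 and passed (adjusted p = 0.00848), as did 43.5% of all genes; without wild type replicate 3, 43.2% passed.

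Actg1, γ-actin, was read by 5 probes that point to the same transcript. The brightest had 6.38, 6.62 and 6.78 in knock-in replicates 1, 2 and 4, and 7.13, 7.23 and 6.96 in wild type replicates 1, 2 and 3. Its difference of -0.52 (SE 0.17, limma adjusted p = 0.0676, 95% interval from -0.93 to -0.11) did not pass over all genes. The unadjusted interval leaves out 0, while the adjusted p, which counts all genes tested, misses the threshold. Within the shared scan day it was -0.59 and passed (adjusted p = 0.0287). The 5 probes ranged from -0.52 to 0.20 and none passed over all 21073 probes. The lowest pair, at -0.52 and -0.51, had groups that did not overlap. Their signs were mixed, so the direction of Actg1 depends on the probe. Actb and Actg1 are widely used as reference genes, and on these arrays their differences were smaller in size than those of Acta2, Tpm2 and Tagln.

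Tpm2, β-tropomyosin, showed the largest rise among the members. Its brighter probe had 1.31, 0.78 and 0.48 in knock-in replicates 1, 2 and 4, and -1.71, -1.91 and -2.49 in wild type replicates 1, 2 and 3. Every knock-in array lay above every wild type array by over 2 log2 units. The rise was 2.89 (SE 0.29, limma adjusted p = 0.00086), or 7.43-fold, and it was the only member to pass with scan as a random block (adjusted p = 0.0159), where 4.85% of all genes passed, 2.83% higher and 2.02% lower. The other Tpm2 probe had -0.88, -1.40 and -1.83 in knock-in replicates 1, 2 and 4, and -2.58, -2.31 and -3.09 in wild type replicates 1, 2 and 3. It rose by 1.29 (SE 0.30, limma adjusted p = 0.0235 over probes). Both probes were well above background on all arrays, and they differed in size, so the fold of Tpm2 lies between 2.45 and 7.43 by probe.

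Tpm1, α-tropomyosin, did not follow Tpm2. The brightest of its 5 probes had 2.78, 2.72 and 2.53 in knock-in replicates 1, 2 and 4, and 2.54, 2.52 and 2.80 in wild type replicates 1, 2 and 3. The groups overlapped, with a difference of 0.059 (SE 0.16, limma adjusted p = 0.82, 95% interval from -0.33 to 0.45). Of the other Tpm1 probes, 3 had differences between -0.097 and 0.089. The exception was the probe for the transcript NM_001164249, with 2.21, 1.72 and 1.14 in knock-in replicates 1, 2 and 4, and 0.62, 0.35 and 1.097 in wild type replicates 1, 2 and 3. These arrays did not overlap, by a narrow margin, and the difference of 1.00 (SE 0.32, limma adjusted p = 0.0597 over probes) did not pass. Within the shared scan day it was 1.20 and passed (adjusted p = 0.0227). The Tpm1 gene gives several transcripts by alternative exons, and the files name 4 of them as targets of these probes.

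Tagln, transgelin or SM22, an actin-binding protein of smooth muscle and of stressed or spreading cells, rose. Its log2 signal was 3.19, 2.99 and 1.87 in knock-in replicates 1, 2 and 4, and 0.44, 0.54 and -1.03 in wild type replicates 1, 2 and 3. Knock-in array 4 was the lowest of its group and wild type array 3 the lowest of the other, and the groups stayed apart. The rise was 2.70 (SE 0.51, limma adjusted p = 0.0103), or 6.51-fold. Within the shared scan day it was 2.20 (adjusted p = 0.00674), and with scan as a random block 2.86 without passing (adjusted p = 0.0909). Among the knock-in arrays, Acta2, Acta1, Tpm2 and Tagln were each highest on array 1 and lowest on array 4. The same order held for Actb and the brightest Tpm1 probe, which did not pass, so it was not particular to the called genes. The brightest Actg1 probe ran the other way.

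**Figure D2:**
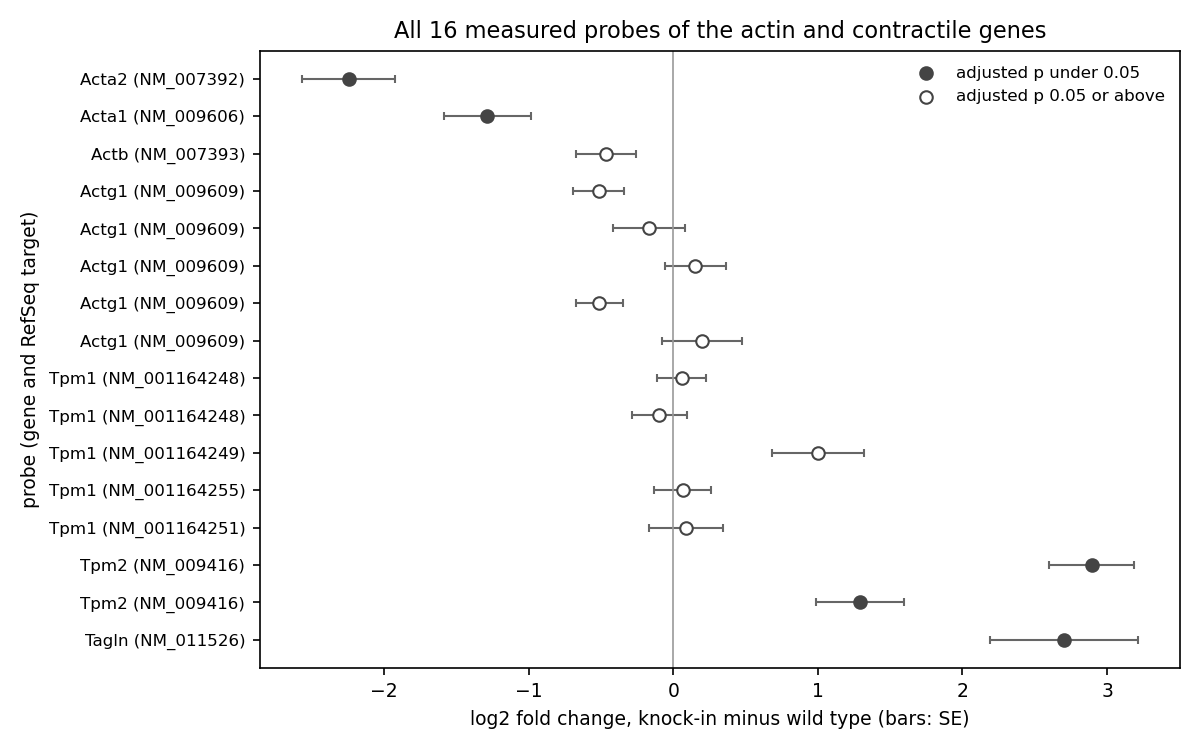
Log2 fold change (x axis, knock-in minus wild type, bars give the SE) of each of the 16 measured probes, named by gene and RefSeq target (y axis); filled points have an adjusted p under 0.05 over all probes. The 2 Tpm2 probes and Tagln lie right of 0 and Acta2 and Acta1 left, the 5 Actg1 probes run from -0.52 to 0.20, and 4 of 5 Tpm1 probes lie near 0.

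Over probes, 5 of the 16 measured passed, 3 higher and 2 lower, against 23.6% of all 21073 probes (10.8% higher and 12.8% lower). These 5 probes belong to the same 4 genes. By size, 2.19% of all genes had a difference at least as large as that of Tagln, 1.85% one as large as that of Tpm2, and 3.18% one as large as that of Acta2. The median over all genes was -0.035.

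The opposite directions were present before scaling too. In the unscaled processed signal, Acta2 was 2199, 1817 and 1186 in knock-in replicates 1, 2 and 4, and 5191, 4386 and 41699 in wild type replicates 1, 2 and 3. Although wild type array 3 was the brightest, Tagln was 1532, 1600 and 689 for knock-in, and 193, 175 and 342 for wild type. Tpm2 was 416, 345 and 262 for knock-in, and 43.4, 32.0 and 124 for wild type. For Acta2, Acta1, Tagln and the brighter Tpm2 probe the groups did not overlap without scaling. The other Tpm2 probe overlapped, with 90.8, 76.4 and 53.0 for knock-in, and 23.8, 24.2 and 82.1 for wild type. Among all probes tested, 20.3% did not overlap unscaled, 1.92% with knock-in higher and 18.4% with knock-in lower.

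A difference taken within an array is the same under any scaling by a constant. The log2 signal of Tagln minus that of Acta2 was -0.52, -0.18 and -0.78 in knock-in replicates 1, 2 and 4, and -4.75, -4.65 and -6.93 in wild type replicates 1, 2 and 3. The same difference for Tpm2 was -2.40, -2.40 and -2.18 for knock-in, and -6.90, -7.10 and -8.39 for wild type. Both pairs were chosen after the values had been seen and carry no test. They show that the genes changed unequally by about 5 log2 units in mean (4.95 for Tagln and 5.14 for Tpm2).

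**Figure D3:**
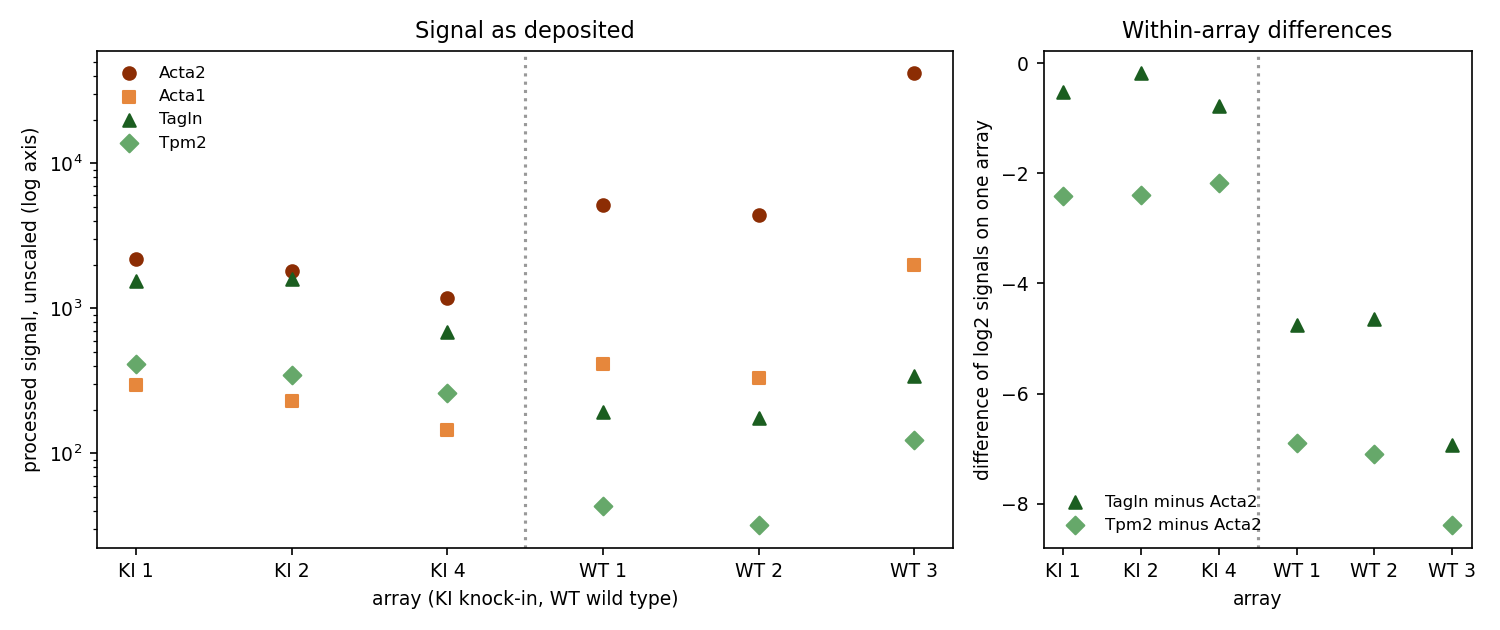
Left, processed signal as deposited (log axis) of Acta2, Acta1, Tagln and Tpm2 on each array, knock-in left of the dotted line and wild type right; right, the log2 signal of Tagln or Tpm2 minus that of Acta2 on the same array. The Tagln difference lies between -0.78 and -0.18 on knock-in arrays and between -6.93 and -4.65 in wild type arrays.

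The 5 genes whose pattern over the 6 arrays lay nearest to that of Acta2 were Cpz, a carboxypeptidase of the extracellular matrix, Fn3k, a kinase that acts on glycated proteins, Dcdc2b, Dgkb, a diacylglycerol kinase, and Anxa3, an annexin. Likeness was the root mean square difference of centred log2 signals among 10649 genes above background on all 6 arrays, and ran from 0.26 for Cpz to 0.30 for Anxa3. None of the members was among them. Their log2 fold changes lay between -2.15 (Fn3k) and -1.73 (Anxa3).

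Other genes of the contractile and actin system were taken from lists. Of 86 measured genes on 5 such lists, members left out, 19 rose and 12 fell, or 36% against 25.9% of all genes, and the median log2 fold change was 0.090. With scan as a random block 4 of the 86 rose and 1 fell, where 4.85% of all genes passed, so these counts are to be read against that share.

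Among smooth muscle contractile partners, 4 rose and 4 fell of 13 measured (median -0.35, 61.5% called). Tagln2, a second transgelin found in many cell types, had 3.87, 4.07 and 3.69 in knock-in replicates 1, 2 and 4, and 0.80, 1.05 and 0.57 in wild type replicates 1, 2 and 3. It rose by 3.07 (SE 0.19, limma adjusted p = 0.00019) and passed with scan as a random block (adjusted p = 0.00309). Myl9, a regulatory light chain of smooth muscle and non-muscle myosin, rose by 1.55 (adjusted p = 0.00729, and 0.124 with scan as a random block). Csrp1, a LIM-domain protein of smooth muscle, fell by 1.86 (adjusted p = 0.00061, and 0.0154 with scan as a random block). Of the 19 genes on this list, 6 were not above background on any array: Myh11, Mylk, Lmod1, Des, Ppp1r14a and Tagln3. Myh11, the heavy chain of smooth muscle myosin, and Lmod1, a smooth muscle actin nucleator, are among the most specific markers of mature smooth muscle.

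Genes of non-muscle myosin and its regulators had 2 rises and 1 fall of 14 measured (median 0.14, 21.4% called). The rises were Myh9, the heavy chain of non-muscle myosin IIA, at 0.92 (SE 0.18, limma adjusted p = 0.0118) and Rhoc, a small GTPase, at 0.55 (adjusted p = 0.0453), and Myh14, another non-muscle heavy chain, fell by 1.00 (adjusted p = 0.0359). None of these passed with scan as a random block.

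Actin filament regulators had 6 rises and 2 falls of 28 measured (median 0.27, 28.6% called). Arpc1b, a subunit of the Arp2/3 complex that nucleates branched actin, had 3.08, 3.13 and 2.93 in knock-in replicates 1, 2 and 4, and 1.00, 1.00 and 0.92 in wild type replicates 1, 2 and 3, and rose by 2.07 (SE 0.15, limma adjusted p = 0.000262). It passed with scan as a random block (adjusted p = 0.00601). Tmod1, a tropomodulin that caps the slow-growing filament end and belongs to the membrane skeleton of lens fibres, rose by 0.83 (adjusted p = 0.00754, and 0.113 with scan as a random block). Tmod2 fell by 2.29 (adjusted p = 0.00652, and 0.131 in the random block), but was above background on 1 of 3 knock-in arrays, so the size is set partly against background. Gsn, gelsolin, which severs filaments, fell by 1.14 (adjusted p = 0.00577, and 0.0998 in the random block).

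Actin crosslinkers and adhesion plaque genes had 5 rises and 4 falls of 20 measured (median 0.20, 45% called). Flnc, filamin C, a crosslinker best known from muscle, had 1.43, 1.74 and 1.95 in knock-in replicates 1, 2 and 4, and -1.04, -1.08 and -0.62 in wild type replicates 1, 2 and 3, and rose by 2.62 (SE 0.21, limma adjusted p = 0.000398). Msn, moesin, which links actin to the membrane, rose by 1.73 (adjusted p = 0.00126), and both passed with scan as a random block (adjusted p = 0.00876 and 0.0271). Flna, filamin A, rose by 0.65 (adjusted p = 0.0156, and 0.18 with scan as a random block).

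Srf and its cofactors Mrtfa and Mrtfb showed no call, and Myocd, myocardin, was not above background on any array and was not measured. Of 13 genes of the SRF list measured, 3 rose and 1 fell (median -0.20, 30.8% called). Fhl1, a LIM protein of muscle, rose by 1.42 (SE 0.24, limma adjusted p = 0.00641) and Vcl, vinculin, by 1.28 (adjusted p = 0.0382). Junb, an immediate early transcription factor, was not above background in knock-in and was at least 1.005-fold lower (adjusted p = 0.00403). Srf, Mrtfa and Mrtfb, named after their values were seen, differed by -0.14, 0.04 and -0.36, with adjusted p of 0.669, 0.906 and 0.243. None of these calls passed with scan as a random block. Without wild type replicate 3, where 43.2% of all genes passed, the list had 3 rises and 5 falls. Fos, Fosb, Egr1 and Ccn1, named after their values were seen, passed as lower there (adjusted p = 0.00761, 0.00425, 0.0222 and 0.0269), and had adjusted p of 0.8, 0.285, 0.987 and 0.755 over all arrays.

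**Figure D4:**
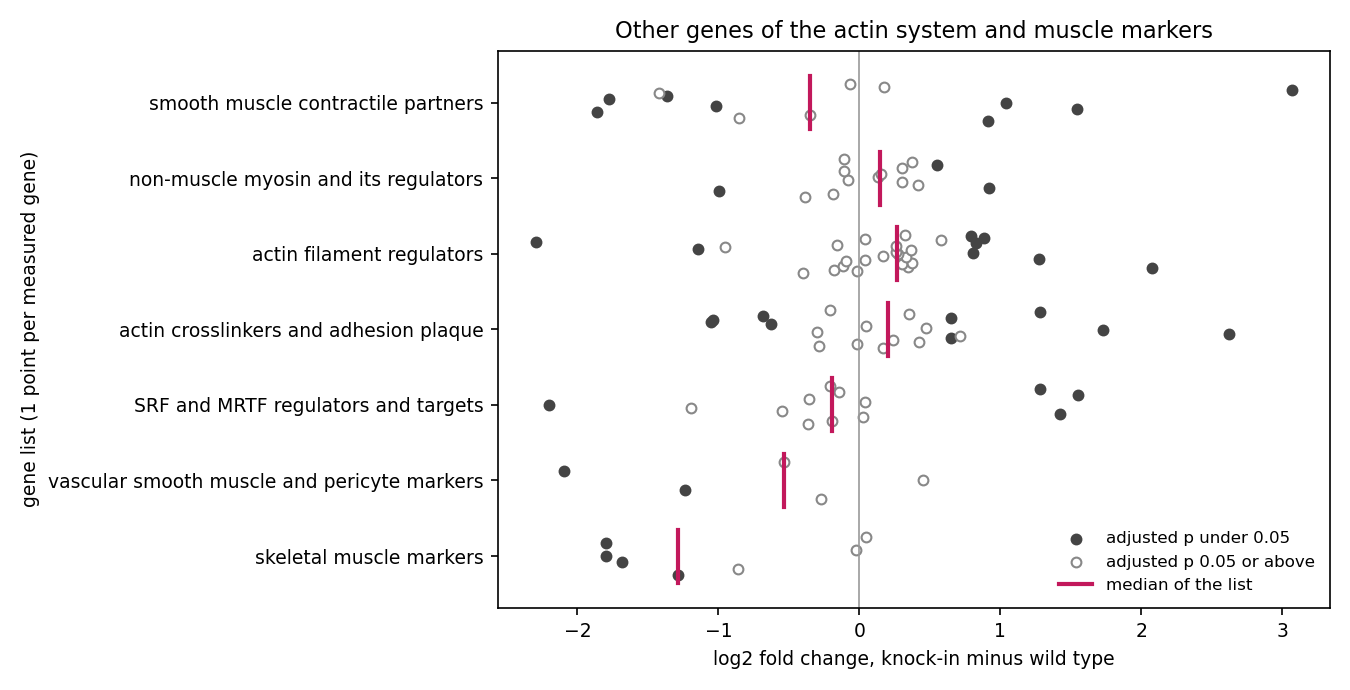
Log2 fold change (x axis, knock-in minus wild type) of each measured gene on 7 lists (rows), filled where the adjusted p was under 0.05, with the list's median as a vertical bar. Genes of the actin system lie on both sides of 0, and the called genes of the vascular smooth muscle and skeletal muscle marker lists lie left of it.

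Genes of myofibroblasts and matrix, the state that Acta2 marks, had 9 rises and 2 falls of 18 measured (median 0.45, 61.1% called). Tgfbi and Fn1, matrix proteins induced by TGF-β, rose by 6.24 and 7.19 (limma adjusted p = 2.38e-05 and 3.79e-05), and the collagens Col5a1 and Col1a1 by 2.34 and 5.06 (adjusted p = 0.000385 and 0.00062). Fn1 was above background on 2 of 3 wild type arrays. The falls were S100a4, a calcium-binding protein used as a fibroblast marker, by 0.78 (adjusted p = 0.0118), and Tgfb3, a TGF-β ligand, by 0.84 (adjusted p = 0.0231), both named after their values were seen. With scan as a random block 4 rose and 0 fell, where 2.83% of all genes passed as higher and 2.02% as lower. Fap, Lox, Tnc, Snai1 and Twist1 were not above background on any array, and Postn was so on 1 knock-in array. The summed signal of the list was 8.71 to 8.87 in knock-in and 8.64 to 9.25 in wild type arrays. The list's brightest genes were Vim and Sparc, named after their values were seen. They differed by -0.43 and -0.16 without passing (limma adjusted p = 0.242 and 0.657). These genes made up most of the sum, so it says little of the dimmer genes that rose. In the same lenses Acta2 was lower, as given above. This list was drawn up with earlier results of these arrays known.

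Markers of other cells that could carry contractile genes were set beside these values. Of 12 vascular smooth muscle and pericyte markers, 5 were measured, and Myh11, Rgs5, Kcnj8, Abcc9, Des and Mustn1 were not above background on any array. Ndufa4l2 and Higd1b, markers of pericytes, fell by 2.10 (limma adjusted p = 0.000529) and 1.24 (adjusted p = 0.00436, and 0.0903 with scan as a random block), while Pdgfrb and Mcam differed by -0.53 (adjusted p = 0.06) and 0.45 (adjusted p = 0.247). A dimmer Mcam probe gave -1.49 (adjusted p = 0.0308 over probes), so the direction of Mcam depends on the probe. The list had 4 falls without wild type replicate 3, where 43.2% of all genes passed in either direction. It had 1 with scan as a random block, where 2.02% of all genes passed as lower. The summed signal of this list, on the log2 scale, was 4.49 to 4.97 in knock-in and 4.87 to 5.08 in wild type arrays, and its part in the lower Acta2 was not tested.

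Of 23 skeletal muscle markers, Acta1 included, 7 were measured and 4 of them fell, with none higher (median -1.29, 57.1% called). The falls beside Acta1 were Casq1, calsequestrin 1, at -1.68 (limma adjusted p = 0.00351), Ckm, muscle creatine kinase, which passed with no knock-in array above background (adjusted p = 0.0239), and Tnnc2, a fast troponin C, at -1.80 (adjusted p = 0.0248). With scan as a random block, Casq1 alone passed (adjusted p = 0.0374), with Ckm at 0.212 and Tnnc2 at 0.176. Tnnt1 and Neb differed by 0.05 and -0.02 (adjusted p = 0.948 and 0.976). Without wild type replicate 3 the list had 7 falls, Tnnt1 and Neb among them (adjusted p = 0.0319 and 0.015). In that setting 43.2% of all genes passed in either direction. The fast myosins Myh1, Myh2 and Myh4, and Myl1, Tcap and Ttn, were not above background on any array. The summed signal was 1.58 to 1.96 in knock-in and 2.19 to 2.66 in wild type arrays. Acta1 was the brightest gene in this sum, and the list's median was its own fold change. Both values therefore partly restate the fall of Acta1. The part of the other markers in the lower Acta1 and Acta2 was not tested.

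Of 8 measured markers of ciliary body, iris and pigment cells, Mitf, a transcription factor of pigment cells, fell by 1.51 (limma adjusted p = 0.00439, and 0.0944 with scan as a random block), and Aqp4, Cldn19 and Tyr did not pass (adjusted p = 0.242, 0.77 and 0.805). The 2 measured Mitf probes ranged from -1.51 to -0.18, and 1 of them passed over probes. The pigment enzymes Dct and Tyrp1, named after their values were seen, differed by 2.499 and 1.29 without passing (adjusted p = 0.0555 and 0.0705), and Dct was above background on 3 knock-in and 1 wild type arrays. Without wild type replicate 3, where 43.2% of all genes passed, the list had 2 falls. The summed signal was 2.39 to 2.76 in knock-in and 2.44 to 3.00 in wild type arrays. Of 4 measured endothelial markers none passed, with Egfl7, Kdr and Pecam1 at -0.51, -0.61 and -0.41 (adjusted p = 0.0655, 0.152 and 0.401). Without wild type replicate 3, Kdr and Pecam1 passed as lower (adjusted p = 0.0109 and 0.0084). The summed signals were 1.44 to 1.58 in knock-in and 1.73 to 2.24 in wild type arrays. Of 4 measured retina and cornea markers, Kera, a keratan sulfate proteoglycan of the cornea, fell by 1.19 (adjusted p = 0.0394, and 0.255 in the random block), Krt5 and Aldh3a1 differed by 0.48 and 0.12 (adjusted p = 0.565 and 0.692), and the summed signal was 6.16 to 6.48 in knock-in and 5.90 to 6.45 in wild type arrays. Aldh3a1, at a mean log2 signal of 6.14, was the brightest gene of the list and made up most of this sum. Gnat1, the rod transducin, named after its value was seen, differed by 3.60 without passing (adjusted p = 0.0588). It had -1.47, -1.12 and 3.13 in knock-in replicates 1, 2 and 4, and -2.99, -4.06 and -3.20 in wild type replicates 1, 2 and 3. The mean difference of Gnat1 thus rests largely on knock-in array 4. The photoreceptor genes Rcvrn and Sag were above background on 2 knock-in and 0 wild type arrays. The part of these markers in the rises of Tagln and Tpm2 was not tested.

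**Figure D5:**
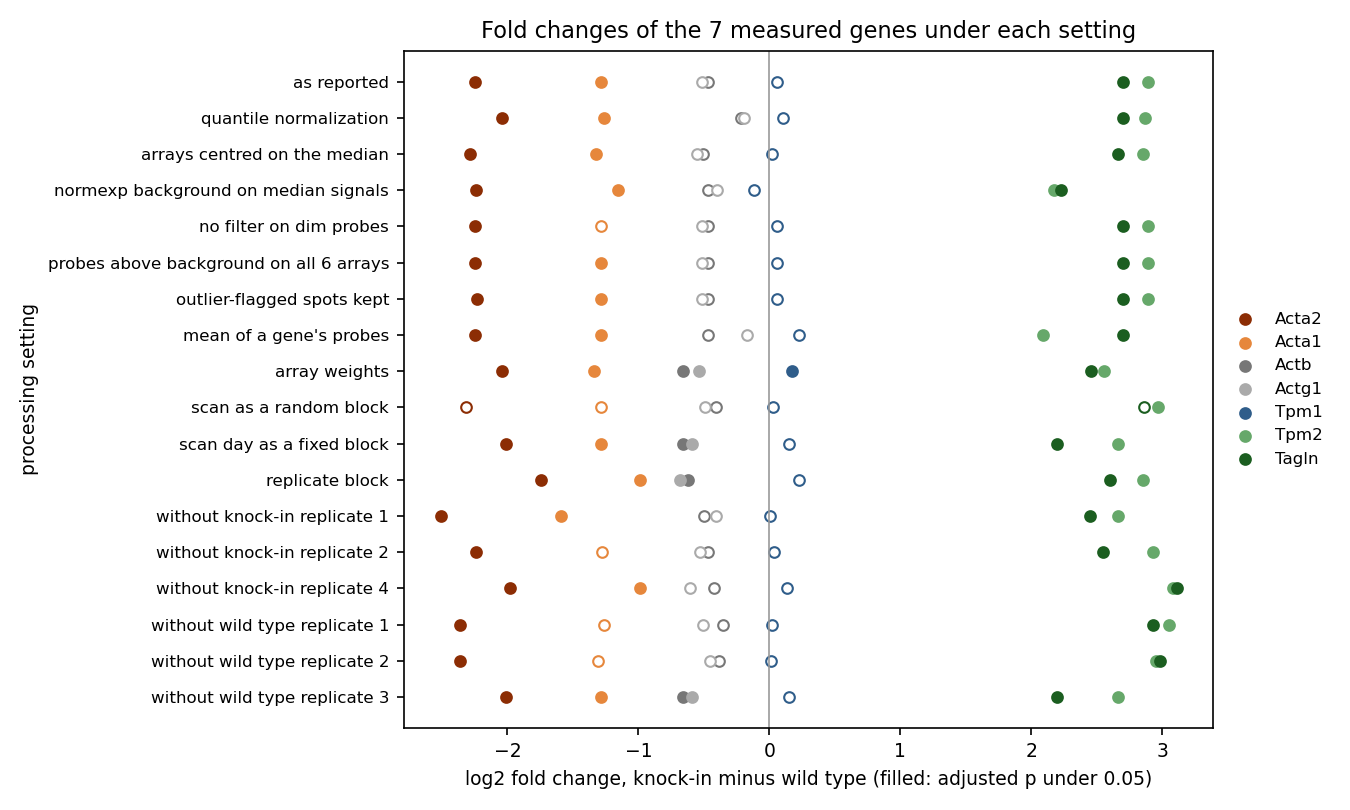
Log2 fold change (x axis, knock-in minus wild type) of the 7 measured genes under each processing setting (rows), filled where the adjusted p was under 0.05. Tpm2 stays right of 0 and filled in every row, Tagln and Acta2 keep their side in every row and are open with scan as a random block, and Tpm1 crosses 0 with normexp.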

How the data were processed

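The authors deposited scanner intensities per spot. Per the file headers, Agilent Feature Extraction 11.0.1.1 subtracted background within each array to give the processed signal; version 9.1 is named in the submitters' processing notes. No scaling between arrays is recorded in the headers, and no coordinates of the mm9 probe design are used. The log2 processed signal minus the 75th percentile of 43020 non-control spots was averaged over a probe's spots, leaving out outlier flags. Of 39429 probes, 21073 were kept, being well above background (at least 50% of spots) on all arrays of a group. RefSeq accessions (without versions) named 27234 probes. Each of 12783 genes was read from its brightest probe.

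Genes, and separately probes, were tested by lmFit and eBayes of limma 3.58.1 (R 4.3.3, 4 residual degrees of freedom) and Benjamini-Hochberg adjustment at 0.05. The fit was tested on simulated data that held no scan effect. Such data cannot show its error rate where scan and genotype coincide. Where a group was below background throughout, a fold is a lower bound against the dimmest signal well above background. With 3 arrays against 3, an exact permutation test cannot go below p = 0.1. The number of arrays limits the precision. Per array, 45.5% to 58.4% of spots exceeded background clearly, and 0 were saturated. The closest pair, wild type replicates 1 and 2, had 43.6% of 399 repeatedly spotted probes more than 2 standard errors of the spots apart. Hybridisations of 1 RNA could differ as much, so the arrays were counted as separate samples on their labels alone. The genes named were all members, up to 4 called genes with the smallest p per list, marker genes above background on all arrays (up to 4, brightest first), Crybb2, and the 5 genes nearest to Acta2 in pattern; any other gene is marked in the text or was a marker near background. A few genes that this rule would name are not reported here, though they count in the list totals. Members and lists were chosen with earlier results of these data known. Normexp was run on median signals, the spot signals the files hold. Alternatives covered scaling, background, filters, flags, the probe rule, array weights, scan, scan day, replicate numbers and single arrays.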

Additional observations from a re-analysis of the deposited data

How the results depend on the processing

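Tpm2 passed under all 17 alternatives (2.09 to 3.08), Acta2 (-2.51 to -1.74) and Tagln (2.20 to 3.11) under 16 of 17, and Acta1 (-1.59 to -0.99) under 12, being lost with scan as a random block, with no filter on dim probes (adjusted p = 0.0569) and without 3 single arrays. Actb and Actg1 did not pass under 13 of 17. Tpm1 turned to -0.12 with normexp (adjusted p = 0.785) and passed with array weights alone (0.18, adjusted p = 0.0489); the cause was not tested.

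All genes called numbered 3310, against 1432 with normexp, 2007 with no filter, 9283 with array weights, 620 with scan as a random block, 5564 with scan day as a fixed block, 5446 with the replicate block, and 1538 to 5649 leaving out single arrays. Member genes called numbered 4, against 7 with array weights, 1 with scan as a random block, and 3 to 6 leaving out single arrays. Member probes called numbered 5, against 3 with no filter, 10 with array weights, 1 with scan as a random block, 10 with scan day as a fixed block, 8 with the replicate block and 2 to 10 leaving out single arrays (2 without knock-in replicate 2, and 10 when wild type replicate 3 was dropped). Genes called on the lists numbered 55, against 31 with normexp, 36 with no filter, 115 with array weights, 13 with scan as a random block, 84 with scan day as a fixed block, 85 with the replicate block and 28 to 81 leaving out single arrays (28 without knock-in replicate 2, and 31 and 35 when wild type replicates 1 and 2 were dropped in turn). For every count the cause was not tested.

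Of all calls 51.3% were higher, against 40.9% with arrays centred on the median; no filter on dim probes moved the median of all genes to 0.21. Replicate numbers 1 and 2 occur in both genotypes, but deviations from the group means correlated at 0.17 for number 1 and -0.22 for number 2, so the numbers were not taken as pairs; the replicate block made Actb and Actg1 pass (adjusted p = 0.0308 and 0.0229) with 1 residual degree of freedom. Depth in the sense of signal over background kept Actg2, Actc1 and Cnn1 out of every fit except that with no filter on dim probes.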

Other observations

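Calponin 2 (Cnn2), a calponin of non-muscle cells, named after its values were seen, had 2 measured probes that differed in direction. One had -0.32, -0.69 and -1.64 in knock-in replicates 1, 2 and 4, and -4.00, -3.44 and -3.40 in wild type replicates 1, 2 and 3, a rise of 2.73 (SE 0.36, limma adjusted p = 0.00313 over probes). The brighter probe, which represents the gene, had -0.59, -0.69 and -0.79 in knock-in replicates 1, 2 and 4, and 0.27, 0.63 and -0.43 in wild type replicates 1, 2 and 3, a difference of -0.85 (SE 0.28, limma adjusted p = 0.0662 over probes). The array gives Cnn2 no single direction.

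Pdlim7 and Capza1, also named after their values were seen, rose in the gene fit by 1.04 and 1.27 (limma adjusted p = 0.0113 and 0.0294), while their probes ranged from -0.060 to 1.04 and from -0.42 to 1.27.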
